A study of Arabidopsis thaliana with 2 samples.

Results

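The 5 metallothionein genes MT1A (AT1G07600), MT1C (AT1G07610), MT2A (AT3G09390), MT2B (AT5G02380) and MT3 (AT3G15353) of Arabidopsis thaliana are described here in immature, unopened flower bud clusters of the accession Col-0. They were chosen by gene identifier, with their RPKM values already known, from 26632 nuclear protein-coding genes found in both the deposited table and the RefSeq annotation of TAIR10.1. All 5 identifiers were found, each with 1 transcript in the table. The study holds 2 libraries, 1 per assay and without replicates: a single-stranded RNA library, for which the authors give 33187 hotspots, and a library of RNA recovered from pooled monosome and polysome fractions of a 15 to 60% sucrose gradient, with 9574408 mapped clones. The label of the single-stranded library calls its enzyme double-strand-specific and names it RNase ONE. That enzyme normally digests single-stranded RNA, so the library is referred to by its name only. No difference below has a replicate check, and every interval is a 95% interval that covers counting error only.

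Metallothioneins are small proteins rich in cysteine, whose thiol groups bind copper, zinc and related metal ions. In plants they are grouped into types by how the cysteines are arranged, and they act beside phytochelatins, small peptides made from glutathione, in keeping free metal ions low. In Arabidopsis, MT1A and MT2B are known from phloem, MT2A and MT3 from leaf mesophyll among other tissues, and the MT4 genes from seeds. The buds are a mixed tissue, so fewer cells of a type and less RNA per cell cannot be told apart. Markers of the labelled tissue were named after values were seen, so they describe it and test nothing. The floral organ genes PI, SEP3, AP3, AP1 and AG lay between 0.852 and 7.71 RPKM, all 5 above the median gene. Of the 4 root and seed markers 0 did, the highest being SESA4 at 0.182 RPKM (upper limit 0.898). They had 0 to 4 clones each, and only PHT1;1 had an upper limit, 0.216 RPKM, below the median gene.

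The coding sequences show what the members share. They were read from RefSeq (TAIR10.1) and are printed 5′ to 3′ from start to stop codon, with the in-frame cysteine codons TGT and TGC in capitals.
MT1A: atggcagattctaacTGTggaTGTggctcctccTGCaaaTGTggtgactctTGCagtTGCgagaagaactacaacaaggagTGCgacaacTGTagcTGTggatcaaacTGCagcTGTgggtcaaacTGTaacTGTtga
MT1C: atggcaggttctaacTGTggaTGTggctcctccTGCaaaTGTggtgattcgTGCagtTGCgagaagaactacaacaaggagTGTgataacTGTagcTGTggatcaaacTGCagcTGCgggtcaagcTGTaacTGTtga
MT2A: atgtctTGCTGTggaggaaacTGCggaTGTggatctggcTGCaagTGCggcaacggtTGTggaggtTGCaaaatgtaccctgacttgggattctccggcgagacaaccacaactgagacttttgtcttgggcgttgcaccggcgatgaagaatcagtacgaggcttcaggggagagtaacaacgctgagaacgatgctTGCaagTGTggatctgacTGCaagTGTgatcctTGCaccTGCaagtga
MT2B: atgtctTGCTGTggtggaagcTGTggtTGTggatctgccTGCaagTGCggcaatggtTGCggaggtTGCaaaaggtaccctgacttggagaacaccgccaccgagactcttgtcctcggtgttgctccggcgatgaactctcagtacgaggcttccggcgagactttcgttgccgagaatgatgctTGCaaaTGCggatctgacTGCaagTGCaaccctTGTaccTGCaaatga
MT3: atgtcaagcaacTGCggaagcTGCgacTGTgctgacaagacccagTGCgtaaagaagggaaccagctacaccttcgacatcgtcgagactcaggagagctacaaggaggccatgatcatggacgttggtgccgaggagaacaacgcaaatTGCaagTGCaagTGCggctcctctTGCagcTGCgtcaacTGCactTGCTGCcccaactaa

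Cysteine codons stand in a block near each end, often with 1 codon between neighbours. The type 1 genes MT1A and MT1C each had 13 cysteine codons among 45 codons (28.9%), 6 before and 7 after a gap of 7 codons. The type 2 genes were longer, and their blocks lay further apart. MT2A had 14 cysteine codons among 81, 8 and 6 of them on the sides of a cysteine-free stretch of 43 codons, and MT2B had 14 among 77, in blocks of 8 and 6 with 39 codons between them. MT3, of type 3, had the fewest, 12 among 69, with 4 ahead of a stretch of 34 codons and 8 behind it.

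The type 1 pair was nearly identical, with 131 of 138 coding bases the same (94.9%) and all 13 cysteine codons at the same positions. The type 2 pair had 196 of 246 aligned positions in common (79.7%) and shared no run of 20 bases. Any type 1 coding sequence matched a type 2 or type 3 one at 44.1 to 49.3% of aligned positions, gaps included. The type 1 sequences have 138 nt, against 210 to 246 nt for the others, and this length difference lowers the percentage. MT1A and MT1C lie near each other on chromosome 1, on opposite strands, at bases 2338904 to 2339321 and 2341447 to 2342148 (TAIR10.1). MT2A lies at bases 2889406 to 2890574 and MT3 at bases 5180667 to 5181537 of chromosome 3, and MT2B at bases 506498 to 507244 of chromosome 5, all 3 on the minus strand. All genes had a single intron except MT3, with 3 exons.

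Type 2 metallothionein mRNA dominated the ribosome-bound RNA of the family. MT2B stood at 77.7 RPKM (70.5 to 85.4), from 515 clones that the authors' weighting reduced to 424.7 weighted clones. RPKM is the deposited number of weighted clones per 1000 nt of transcript and 1000000 mapped clones. MT2A stood at 58.4 RPKM (51.98 to 65.37), from 371 clones or 300.8 weighted clones. These genes ranked 11 and 18 among the 23419 genes above 0 and held 95.0% of the 764.1 weighted clones of the 5 members. MT2B exceeded MT2A by a ratio of 1.33 (1.15 to 1.55), which lies outside counting error. MT2A is listed with 538 nt but annotated with 963 nt, whereas MT2B has 571 nt in both sources, and over annotated lengths, a setting added after seeing the data, the ratio was 2.38.

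The type 1 and type 3 genes stood far lower. MT1A was at 9.63 RPKM (5.09 to 16.6), from 25 clones or 12.7 weighted clones, and ranked 268. MT3 was at 3.55 RPKM (1.99 to 5.85), from 21 clones or 15.0 weighted clones, and ranked 918. MT1C was at 2.47 RPKM (1.22 to 4.44), from 27 clones or 10.8 weighted clones, and ranked 1331. These 3 levels rest on few clones, so their order is less firm than that of the type 2 genes.

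In the order MT2B, MT2A, MT1A, MT3 and MT1C, a single neighbouring pair could not be separated by counting error. MT2A exceeded MT1A by a ratio of 6.06 (3.47 to 11.6), or 3.39 (1.94 to 6.48) over annotated lengths, and MT1A exceeded MT3 by 2.72 (1.18 to 6.14). MT1A had fewer weighted clones than MT3, 12.7 against 15.0. Its higher RPKM comes from its listed length of 138 nt, against 443 nt for MT3. MT3 over MT1C had a ratio of 1.44 (0.614 to 3.47), and with unweighted clones it was 0.802 (0.431 to 1.47), so both intervals include 1 and the direction depends on the weights. Within type 1, MT1C over MT1A had a ratio of 0.256 (0.103 to 0.626). Their weighted clones were close, 10.8 and 12.7, and the ratio comes mostly from the listed lengths of 457 and 138 nt. The highest member was 31.4-fold over the lowest.

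**Figure D1:**
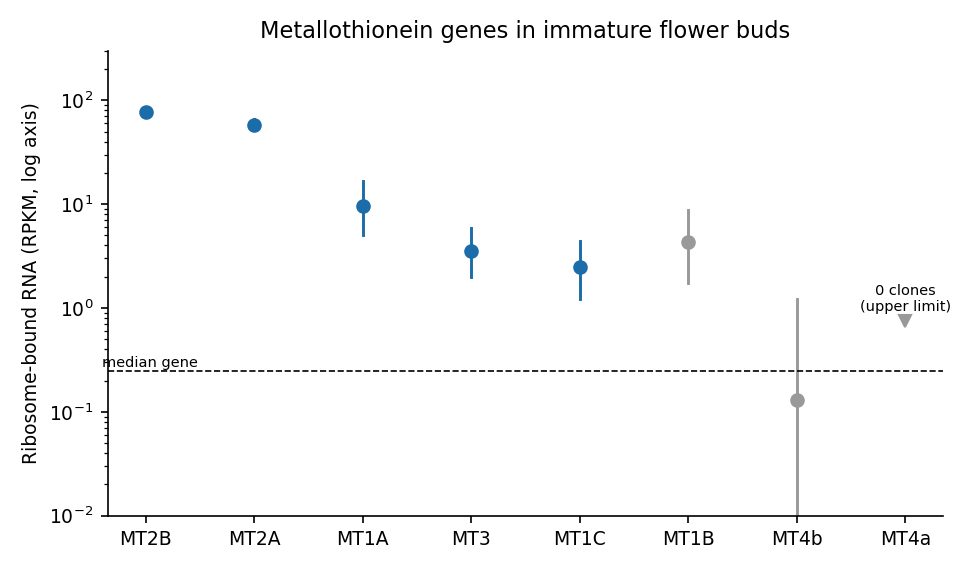
Ribosome-bound RNA of the metallothionein genes, in RPKM on a log axis; blue points are the 5 members and grey points MT1B and the MT4 genes, bars are 95% counting intervals (1 library), the triangle is the upper limit for a gene with 0 clones, the lower bar of MT4b runs past the axis, and the dashed line is the median gene at 0.246 RPKM. MT2B and MT2A stand at 77.7 and 58.4 RPKM, above the other members at 2.47 to 9.63 RPKM.

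The level of MT1A carries its own limits. Its listed transcript has 138 nt, the length of its coding sequence, so no UTR is counted in it, and 0.511% of all genes had a listed transcript as short. All 138 nt also lie inside the 5′ UTR exons of AT1G07590, a longer gene on the same strand. AT1G07590 was listed with 53 clones, 23.4 weighted clones and 1.03 RPKM (0.657 to 1.55). Clones of MT1A and of the start of AT1G07590 cannot be told apart in this table.

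The authors' weights were lowest for the type 1 genes. The mean weight per clone was 0.825 for MT2B, 0.811 for MT2A and 0.716 for MT3, against 0.509 for MT1A and 0.400 for MT1C. Of the 20-base runs in the annotated exons, MT1A had 58.8% (70 of 119) at other places of the genome and MT1C 10.9% (61 of 558). MT1B was among those places for both. The numbers of such runs were close, and the percentages differ because the MT1A model has 138 nt without UTRs, against 577 nt for MT1C. MT3 had 1.60%, MT2A 0.106% and MT2B 0.0%. The part of shared sequence in the weights was not tested. A mean weight under 0.5 was found for 1 of 5 members, MT1C, and for 36.4% of all genes above 0.

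**Figure D2:**
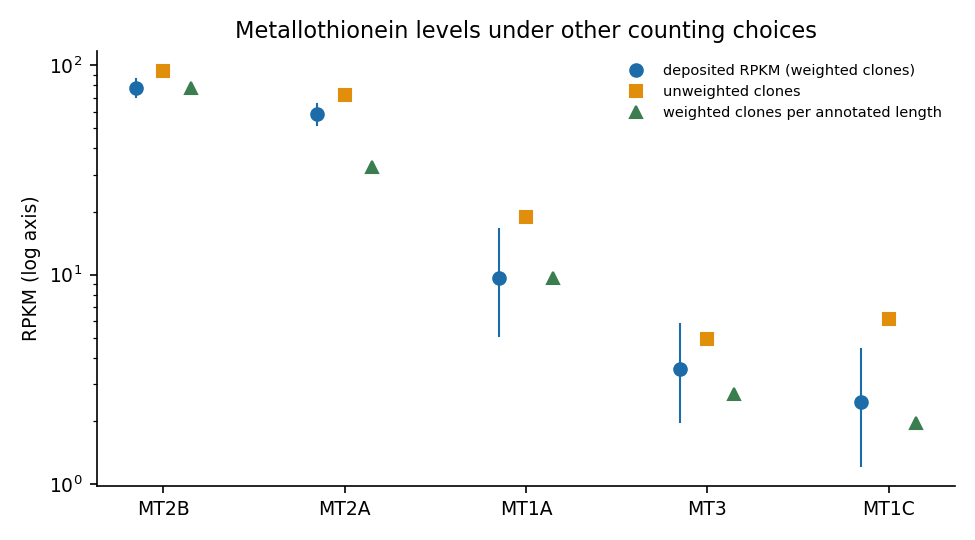
RPKM of the 5 members on a log axis under 3 counting choices; circles are the deposited values with 95% counting intervals, squares use unweighted clones and triangles divide weighted clones by the annotated transcript length. MT2B and MT2A stay highest under each, MT1C stands at 6.17 RPKM with unweighted clones, against 2.47 RPKM as deposited, and MT2A stands at 32.6 RPKM over its annotated length.

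All 5 members lay in the upper range of ribosome-bound RNA. The 5 members had a median of 9.63 RPKM, 39.2-fold over the median gene, which is the median of genes above 0 at 0.246 RPKM. The family median is the level of MT1A, from 12.7 weighted clones that cannot be told apart from those of AT1G07590. MT3, the next member below it, was 14.4-fold over the median gene. All 5 exceeded the median gene, as 44.0% of all 26632 genes did, genes at 0 included. All 5 were also at least 10-fold over it, MT1C narrowly at 10.06-fold, as were 5.02% of all genes. Since the members were picked with these levels known, the counts describe the family and test nothing. With a median taken only over genes of at least 10 weighted clones the fold of the family median was 8.24, and over genes whose mean weight was 0.5 or more the median gene was 0.396 RPKM. Against that, the fold was 24.3 for all 5 members and 86.0 for the 4 left when MT1C is dropped too, whose median was 34.0 RPKM.

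The remaining metallothionein genes were low or uncertain. MT4a and MT4b encode seed metallothioneins, and neither exceeded the median gene. MT4a had 0 clones, with an upper limit of 0.748 RPKM, and MT4b stood at 0.131 RPKM from 1 clone of weight 0.5 (upper limit 1.23). MT1B (AT5G56795) was listed at 4.33 RPKM (1.75 to 8.88), from 16 clones or 7.08 weighted clones on a transcript of 171 nt. Its coding sequence shared 70 runs of 20 bases with MT1A and 26 with MT1C, and its level is uncertain, since the authors' counting could split clones between such copies. MT1B over MT1A had a ratio of 0.449 (0.152 to 1.21) and MT3 over MT1B one of 0.820 (0.316 to 2.36), and both intervals include 1. MT1B is annotated with 741 nt, and over annotated lengths, a setting added after seeing the data, these ratios were 0.104 (0.0351 to 0.280) and 2.71 (1.05 to 7.82), so the order of MT3 and MT1B turns with the length used.

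Hotspots touched 3 of the 5 genes on their own strand. Hotspots are stretches that the authors called in the single-stranded library, with positions in TAIR9. Members are placed against the TAIR10.1 gene models, since 82.3% of nuclear hotspot bases lay in same-strand exons there, against 64.2% after a move of 100 nt. Counting at least 1 exon base, 2 of 5 members, MT2B and MT1A, had a hotspot, beside 52.3% of all genes. Counting any base of the gene span, introns included, added MT2A for 3 of 5, beside 54.0% of all genes. With at least 50% of a hotspot required in exons, 1 of 5 remained, MT2B, beside 51.5% of all genes. With scores below the median alone, 1 of 5 remained, MT1A, beside 35.3%. The MT2B hotspot across the 3′ end has a score equal to that median, -2.62, and so was not counted as below it. Short transcripts have fewer: among the 6047 genes with transcripts of 138 to 963 nt, the range of the members, 21.2% had a hotspot (20.1 to 22.2). Of the 370 of these that were also at least as abundant as MT1C, 36.8% had one (31.8 to 41.9). A count of 2 in 5 is too small to be set apart from any of these shares.

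MT2B carried 2 hotspots, and they were on its second exon. The first covered 81 nt at bases 506776 to 506856 of chromosome 5, all coding. It spans coding bases 133 to 213 counted from the A of the start codon, or codons 45 to 71, and so runs from the cysteine-free stretch over 4 of the 6 cysteine codons of the closing block printed above. The other covered 124 nt at bases 506449 to 506572, of which 75 nt lay in the 3′ UTR and 49 nt beyond the annotated end of the gene. Together they covered 156 exon nt, or 273 nt per kb of transcript.

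MT1A and MT2A had their hotspots at or in the intron. The MT1A hotspot covered 69 nt at bases 2339210 to 2339278 of chromosome 1, with the last 13 nt of the first coding exon and 56 nt of the intron. These 13 nt also lie in a 5′ UTR exon of AT1G07590, and the span of that gene covers the whole hotspot, so it cannot be assigned to either gene. The MT2A hotspot covered 85 nt at bases 2890007 to 2890091 of chromosome 3 and lay wholly inside the 206-nt intron, 33 nt from the nearest exon. A hotspot wholly inside a same-strand intron was found for 1 of 5 members and for 8.40% of the 21203 genes with an intron. MT2A also had a hotspot of 62 nt on the opposite strand, at bases 2889438 to 2889499, facing its 3′ UTR. Such a hotspot facing an exon was found for 1 of 5 members and for 5.27% of all genes.

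MT1C and MT3 had no hotspot, and the nearest one on their strand lay 7018 and 8065 nt away. No sequencing depth could be found for the single-stranded library, so no limit can be put on this absence. The authors' scores, which are below 0 for every hotspot with a median of -2.62, were -3.47 for MT1A, -3.34 for the MT2A intron, -2.62 for the MT2B 3′ end and -2.39 for the MT2B coding hotspot. Of all hotspots, 86.5% had a score closer to 0 than that of MT1A, 71.3% than that of the MT2A intron, and 32.7% and 32.3% than those of MT2B. How the score was computed was not found in these sources.

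**Figure D3:**
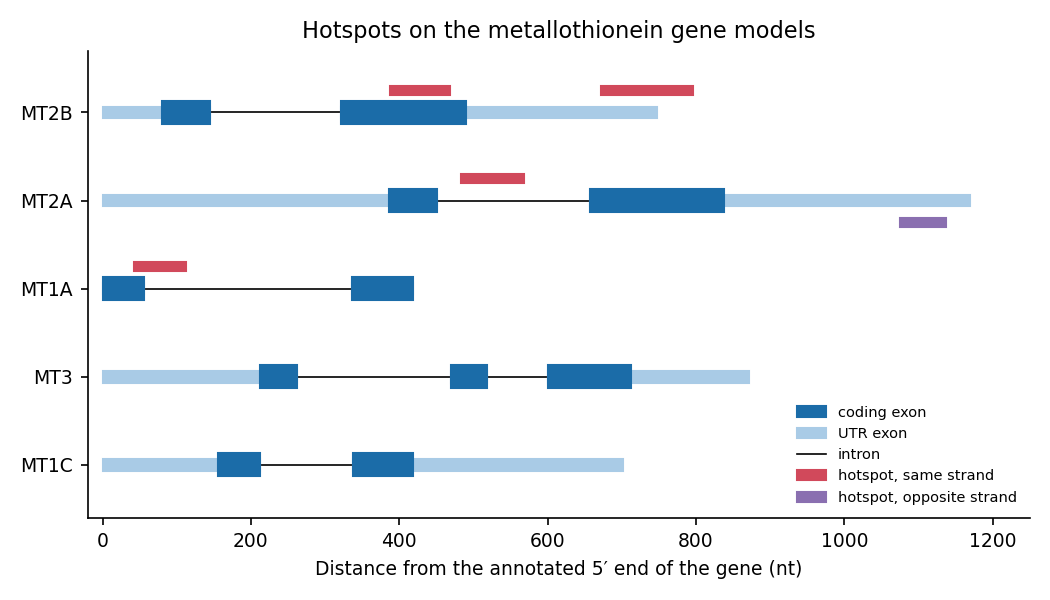
Gene models of the 5 members against the distance from the annotated 5′ end in nt; dark boxes are coding exons, pale boxes UTR exons, lines introns, red bars hotspots on the same strand and the violet bar a hotspot on the opposite strand. MT2B has a coding hotspot of 81 nt and one across its 3′ end, the MT2A hotspot of 85 nt sits in the intron, and MT3 and MT1C have none.

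Other genes of metal handling were mostly lower than the metallothioneins. Among 39 genes in 6 lists the median was 0.504 RPKM, 26 exceeded the median gene and none reached the level of MT2A. Counts above the median gene use the listed RPKM, and the intervals of some of the 26 include the median gene. In the same 39 genes, 15 had an exon hotspot, beside 52.3% of all genes. The lists were drawn up with earlier results of these data known, and their counts are given as a description beside the 44.0% of all genes that exceeded the median gene.

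Copper proteins came closest. All 4 exceeded the median gene, with a median of 7.30 RPKM. Their listed transcripts have 782 to 967 nt. Of these genes 0 of 4 had a hotspot, beside 52.3% of all genes and 21.2% of genes with transcripts of 138 to 963 nt. DRT112, a plastocyanin that carries electrons to photosystem I, stood at 45.4 RPKM (41.1 to 50.01). CSD1, the cytosolic copper/zinc superoxide dismutase, stood at 11.6 RPKM (9.42 to 14.2), and the second plastocyanin gene PETE1 was lowest at 1.85 RPKM (1.01 to 3.11).

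Of the 12 genes listed for copper delivery, 8 exceeded the median gene, with a median of 0.480 RPKM. Of the same 12, 6 had a hotspot, a share near the 52.3% of all genes. Both counts include SPL7, neither a chaperone nor a transporter gene, at 0.504 RPKM with 5 hotspots. The copper chaperones CCH and ATX1 led at 3.62 RPKM (2.33 to 5.35) and 2.36 RPKM (1.21 to 4.16), levels whose intervals overlap those of MT3 and MT1C. CCS, the chaperone that loads copper into superoxide dismutase, was lowest at 0.0479 RPKM (upper limit 0.426), from 4 clones with a mean weight of 0.133. With unweighted clones CCS stood at 0.360 RPKM, above COPT2 at 0.164 RPKM, so its place rests on the weights. Of the 6 genes of glutathione and phytochelatin, 5 exceeded the median gene, with a median of 0.677 RPKM. GSH1, the first enzyme of glutathione synthesis, stood at 2.37 RPKM (1.74 to 3.15) and GSH2, the second, at 0.975 RPKM (0.576 to 1.54). The phytochelatin synthase gene PCS2 was lowest at 0.0323 RPKM (upper limit 0.227), from 12 clones with a mean weight of 0.0603, and stood at 0.536 RPKM with unweighted clones. The other phytochelatin synthase gene, CAD1, stood at 0.420 RPKM (0.171 to 0.858), an interval that includes the median gene.

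Of the 4 ferritin genes, which encode iron storage proteins and had a median of 0.647 RPKM, 3 exceeded the median gene. These were FER1 at 5.39 RPKM (4.23 to 6.77), FER4 at 0.819 RPKM and FER3 at 0.476 RPKM. FER2 was lowest at 0.237 RPKM, from 3 clones (upper limit 0.788). Zinc transporters had a median of 0.415 RPKM and 6 of 9 above the median gene. The pump gene HMA3 stood at 1.503 RPKM with a mean weight of 0.333, and the vacuolar zinc transporter gene ZAT at 1.49 RPKM. MTPA2 was lowest at 0.0116 RPKM, from 2 clones (upper limit 0.212). None of the 4 nicotianamine synthase genes, whose product chelates iron and zinc, exceeded the median gene. NAS1 stood at 0.168 RPKM (upper limit 0.606), NAS3 at 0.0836 RPKM (upper limit 0.466), and NAS2 was listed at 0 (upper limit 0.400). Each of the 4 had 0 to 2 clones and an upper limit above the median gene, so they cannot be placed below it.

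**Figure D4:**
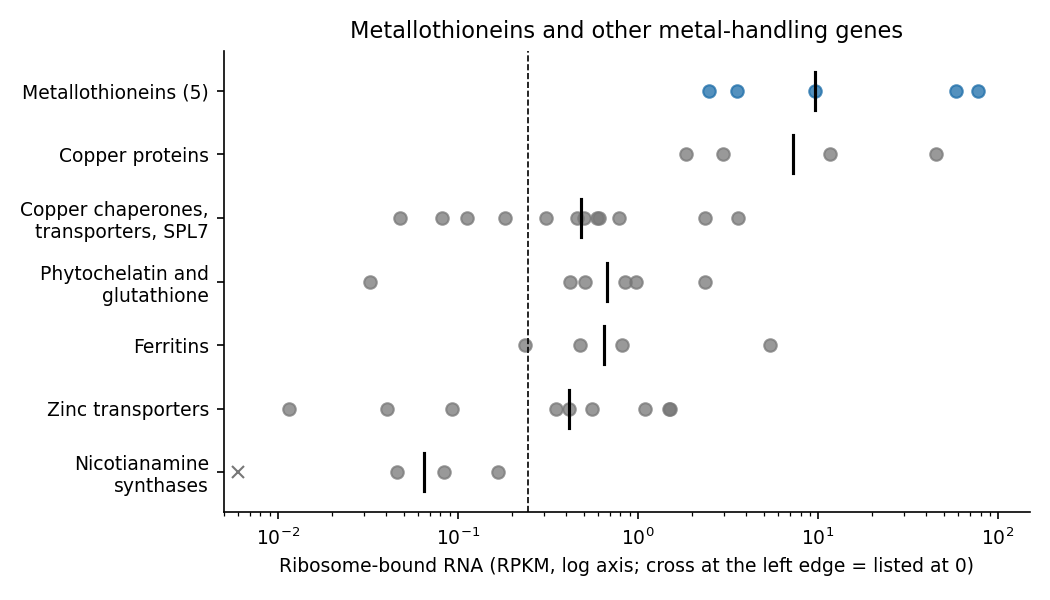
Ribosome-bound RNA in RPKM on a log axis for the 5 metallothioneins and the 39 other metal-handling genes; each point is a gene, bars are list medians, the cross is a gene listed at 0 and the dashed line is the median gene. The metallothionein median of 9.63 RPKM, which is the level of MT1A, and the copper protein median of 7.30 RPKM stand to the right of the other lists.

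Metallothionein genes other than MT1B held the highest percentages of cysteine codons among short coding sequences. Of 2710 genes with at most 120 codons, MT1A and MT1C shared the highest percentage of cysteine codons, followed by MT4a at 20.2%, MT4b just below it, MT2B at 18.2%, MT3 at 17.4% and MT2A at 17.3%. The median of these short genes was 2.34%. Of the 243 with at least 10% cysteine codons, 52 exceeded the median gene, beside 44.0% of all genes, and 100 were above 0. The 2710 short genes together had a median of 0.0436 RPKM, below the median gene, so the 44.0% is not matched for length. MT2B and MT2A had the highest RPKM of the 243, followed by LCR69 at 10.7 RPKM (7.96 to 14.0), MT1A, and LCR68 at 4.43 RPKM (2.79 to 6.66). LCR69 and LCR68 encode small cysteine-rich proteins related to plant defensins. All 5 members were among the 10 genes of this class at or above the level of MT1C, and 17 of the 243 had a hotspot, beside 52.3% of all genes and 21.2% of genes in the length range of the members.

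**Figure D5:**
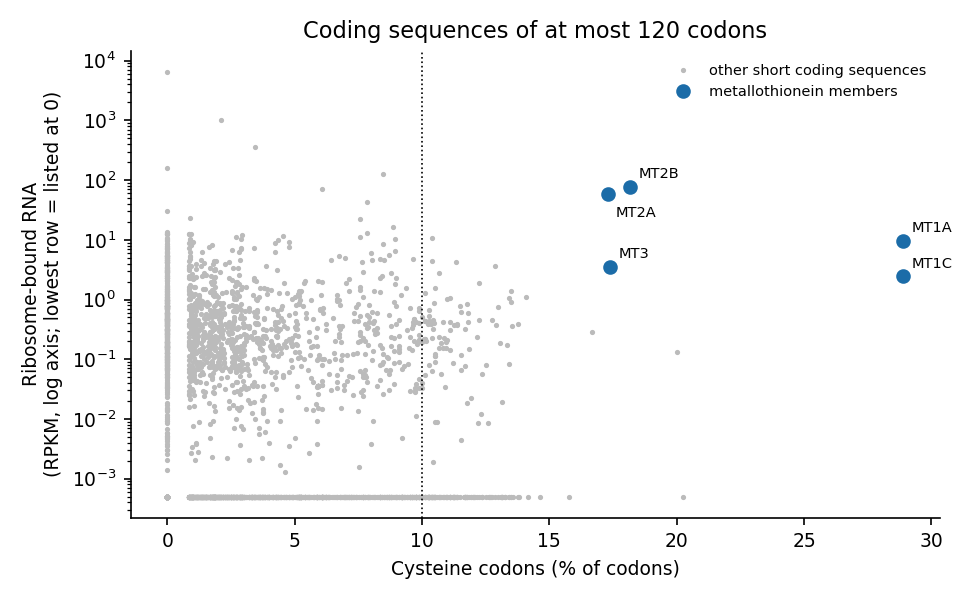
Percentage of cysteine codons against ribosome-bound RNA in RPKM (log axis, genes listed at 0 in the lowest row) for the 2710 coding sequences of at most 120 codons; blue points are the 5 members, and the dotted line marks 10%. MT1A and MT1C share the highest percentage, 28.9%, and MT2B and MT2A have the highest RPKM right of the line.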

How the data were processed

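The members and gene lists were chosen with earlier results of these data known. The tools named in the submitters' processing notes are Bowtie 0.12.7 and cutadapt 0.9.5, with build TAIR9. The authors deposited hotspots with a score for each, and an FDR of 5% stands in the list's name. Which program called the hotspots was not found in these sources. Per the file headers, the table holds the count of clones and an estimated count of weighted clones, from which the authors made RPM (per 9574408 mapped clones) and RPKM (per kb of listed length). Both relations held for all 37318 transcripts. Neither the basis of the weights nor any use of strand was found there.

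Each gene was represented by its isoform of longest coding sequence shared by the table and RefSeq's TAIR10.1 annotation, and hotspots were assigned by same-strand exon overlap of at least 1 base. Intervals are exact Poisson on weighted clones, which are not whole. Ratios use the conditional binomial, and shares exact binomial intervals. Intervals, ratios and overlaps were tested on simulated data. Coding sequences were aligned globally with Biopython 1.88 (match 1, mismatch -1, gap opening -2, extension -0.5). Python 3.11.15 and SciPy 1.17.1 were used. No protein table was used, so cysteines are cysteine codons. With 1 library per assay no test across samples was made. Named genes were all metallothioneins, the highest 2 and lowest 1 of each other list, and the 5 highest genes rich in cysteine codons. AT1G07590, FER3, COPT2, SPL7, CAD1 and the markers are further names given after values were seen.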

Additional observations from a re-analysis of the deposited data

How the results depend on the processing

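Of 47 values under alternatives, 31 stayed within the counting interval of the reported value or, for counts, within 1.5 times. With unweighted clones MT2B stood at 94.2 RPKM, MT2A at 72.0, MT1A at 18.9 and MT1C at 6.17, and over its annotated length MT2A stood at 32.6 RPKM. Each member has 1 listed transcript, so the values under the choice of isoform could not move. Nor could those of MT1A and MT2B over annotated lengths, which equal their listed lengths. All of these are counted among the 31, so that number overstates how stable the values were. The fold of the family median over the median gene was 8.24 among genes of at least 10 weighted clones and 86.0 when both the genes and the members were limited to a mean weight of 0.5 or more, which drops MT1C; with all 5 members against those genes it was 24.3. Members with a hotspot numbered 1 when at least 50% of the hotspot had to lie in exons (MT2B, 51.5% of all genes). They also numbered 1 when the score had to be below the median (MT1A, 35.3%), with an MT2B score equal to that median. With any base of the gene span they numbered 3 (54.0%). The ratio of MT2B over MT2A was 2.38 over annotated lengths, an alternative added after seeing the data. Over annotated lengths, also added after seeing the data, MT2A over MT1A was 3.39, MT1B over MT1A 0.104 and MT3 over MT1B 2.71, the last turned round from 0.820. MT3 over MT1C was turned round with unweighted clones (0.802), and both its intervals include 1. No paired analysis was possible because each assay has 1 library.

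The levels of MT1A, MT3, MT1C and MT1B rest on fewer than 20 weighted clones each, and no depth was found for the single-stranded library.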

Other observations

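MT1B differed from the other metallothioneins in how its reading frame is annotated. The coding sequence of 156 nt that RefSeq gives for MT1B held 0 cysteine codons among 51 codons, while 124 of 156 aligned positions matched MT1A (79.5%). Its 16 clones gave a mean weight of 0.443, and 37.8% of the 20-base runs in its annotated exons occurred at other places of the genome, MT1A and MT1C among them. The listed transcript had 171 nt and the annotated one 741 nt, and over the annotated length the level was 0.998 RPKM, against 4.33 RPKM as deposited. No hotspot lay on MT1B, and the nearest on its strand was 5396 nt away.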
